A study of Mus musculus with 4 samples.

Results

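The 10 genes described here encode subunits of the mammalian BAF (SWI/SNF) chromatin remodelling complex: *Smarca2*, *Smarca4*, *Smarcc1*, *Smarcc2*, *Smarcd1*, *Smarcd2*, *Smarcd3*, *Arid1a*, *Arid1b* and *Actl6a*. They were chosen by gene name, as subunits that exist in alternative forms in stem cells and in the heart, and each name matched 1 of the 24637 genes in the deposited table. Their RNA was measured by sequencing of polyadenylated RNA in 4 libraries from mouse embryonic stem cell (ESC) lines that had been driven towards cardiomyocytes, 5 days as embryoid bodies and then 9 days plated on gelatin. In the labels 2 libraries are WT (Taf4+/+) and 2 are Taf4a-/-, and the study states that each came from an independent line derived from blastocysts of *Taf4a*+/- crosses. *Taf4a* encodes a subunit of TFIID, the general transcription factor that recognises core promoters, and the study asked what its loss does to cardiac differentiation. The lines of both genotypes had been kept on mouse embryonic fibroblast feeders. The study describes removal of feeders before its spontaneous differentiation, and its account of the cardiac protocol does not mention this step. No sorting of the differentiated cells is described, so a library may hold several cell types.

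BAF complexes use the energy of ATP to slide or evict nucleosomes and so open regulatory DNA. Each complex holds 1 of the alternative ATPases Smarca4 (Brg1) and Smarca2 (Brm), a pair of Smarcc scaffold proteins, 1 Smarcd (Baf60) subunit and, in canonical BAF, 1 of the large DNA-binding proteins Arid1a and Arid1b, beside common subunits such as Actl6a. The combination depends on the cell type. Complexes of ESCs are built around Smarca4, Smarcc1, Smarcd1 and Arid1a, and the heart uses Smarcd3 (Baf60c), which joins BAF to the cardiac transcription factors Gata4, Tbx5 and Nkx2-5.

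Promoter sequences are shown for *Smarca2* and *Arid1a*, the 2 of these genes whose RNA level passed the test, and for *Smarcd3*, the cardiac form. Each line gives 280 nucleotides, 5′ to 3′ on the strand of the gene, from 250 nucleotides before to 30 nucleotides after the RefSeq start of GRCm38.p6, with the GC box (GGGCGG, or CCGCCC on the other strand) in capitals. The intervals are chr19:26604910-26605189 (plus strand) for *Smarca2*, chr4:133756740-133757019 (minus strand) for *Arid1a* and chr5:24601973-24602252 (minus strand) for *Smarcd3*.
Smarca2: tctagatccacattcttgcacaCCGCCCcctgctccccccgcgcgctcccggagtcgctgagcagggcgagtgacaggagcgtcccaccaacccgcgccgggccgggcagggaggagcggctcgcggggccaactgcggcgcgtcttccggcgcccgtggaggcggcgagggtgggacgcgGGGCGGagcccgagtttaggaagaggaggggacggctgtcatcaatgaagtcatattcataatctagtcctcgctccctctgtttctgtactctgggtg
Arid1a: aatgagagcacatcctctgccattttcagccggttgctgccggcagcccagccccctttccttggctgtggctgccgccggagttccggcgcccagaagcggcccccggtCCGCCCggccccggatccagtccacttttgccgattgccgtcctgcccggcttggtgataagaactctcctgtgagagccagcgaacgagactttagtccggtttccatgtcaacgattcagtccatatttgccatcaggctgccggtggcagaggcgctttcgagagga
Smarcd3: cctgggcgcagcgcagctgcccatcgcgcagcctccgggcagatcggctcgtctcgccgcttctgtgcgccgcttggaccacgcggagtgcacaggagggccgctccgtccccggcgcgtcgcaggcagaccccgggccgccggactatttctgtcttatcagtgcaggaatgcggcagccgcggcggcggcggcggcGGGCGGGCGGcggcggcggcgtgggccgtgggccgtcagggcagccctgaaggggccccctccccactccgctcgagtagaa
Each of these sequences occurs once in NCBIM37, the build to which the reads were mapped. There they lie at chr19:26679400-26679679, chr4:133312655-133312934 and chr5:24107791-24108070. RefSeq gave a window of 300 nucleotides for 10 of 10 genes, and a second one for *Arid1a*. A GC box was found on either strand in at least 1 window of 10 of 10 genes, against 35.7% of 32851 mouse promoter windows of the same length. The windows of the 10 genes held 55% to 81% G and C (median of all windows 52.7%), and in 9 of 10 genes a window held more CpG dinucleotides than the upper quartile of all windows. *Smarcd2* was the exception in CpG content, and of the 10 genes its window alone held the TATA box letters TATAAA, present in 13.6% of all windows. Its window is taken at a start inside the gene (position 106128946 of NCBIM37, in a minus-strand gene that runs from 106124493 to 106134286). That start lies 104 nucleotides from the nearest annotated one, against at most 13 in the other genes. The letters TATAAA lie near the upstream end of the window, far from the start. Starts inside the gene were also used for *Arid1b* (position 4995074 of NCBIM37) and for the *Arid1a* window not printed here (position 133309900). Of the other letters searched on both strands, the ETS motif CCGGAAG was present in *Smarca2* and *Smarcc1* (8.86% of all windows) and the YY1 motif AAGATGGC in *Smarcd1* (2.75%). None of the 10 genes held CCAAT (37.4%) or the E-box CACGTG (7.15%). These are matches of letters and do not show that a factor binds.

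The libraries held 21732746 to 27733034 reads assigned to genes, and the 10 subunits were counted with 419 to 12463 reads per library, so counting error alone was at most 4.89% of a value (*Smarcd3* in WT replicate 2). Several features of the libraries stand beside all of the results. The *Taf4a* gene itself stood at 889 and 678 normalized counts in replicates 1 and 2 of WT, against 1722 and 1799 in replicates 1 and 2 of those labelled *Taf4a*-/-, a log2 fold change of 1.18 (SE 0.16, adjusted p = 0.00569 from limma). The study describes a null allele that lacks some exons of the gene, and reports that Taf4 protein was absent from its *Taf4a*-/- ESCs. The count above runs over the whole gene, so it does not check the deletion and cannot speak against the label. Because the genotype was not checked here, these samples are called the libraries labelled *Taf4a*-/-. Of 4 Y-linked genes looked at, 4 had reads in replicate 1 of each genotype and 0 had a read in replicate 2. *Eif2s3y*, a Y-linked translation factor gene, had 1688, 0, 309 and 0 normalized counts in the same order. *Xist*, which coats the inactive X, was at 6.14, 7.27, 217 and 6470.0. The lines therefore differ in sex chromosome RNA within each genotype, and its part in the results was not tested.

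Genotypes were compared on log2(normalized count + 1) with limma, over the 16926 genes whose mean reached 10 normalized counts. A call required an adjusted p-value (Benjamini-Hochberg, over all of these genes) under 0.05. Of the 10 BAF genes 2 were called, *Smarca2* as lower and *Arid1a* as higher in the libraries labelled *Taf4a*-/-. Over all genes tested, 28.6% were called, 11.3% as higher and 17.3% as lower, so 1 call in each direction among 10 genes is close to the background. The values of the genotypes did not overlap in 9 of the 10 genes, against 71.1% of all genes. Both libraries labelled *Taf4a*-/- lay above both WT libraries in 7 of the 10 genes (34.5% of all genes) and below them in 2 (36.6% of all genes). The median log2 fold change of the 10 genes was 0.26, against -0.01 over all genes tested.

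**Figure D1:**
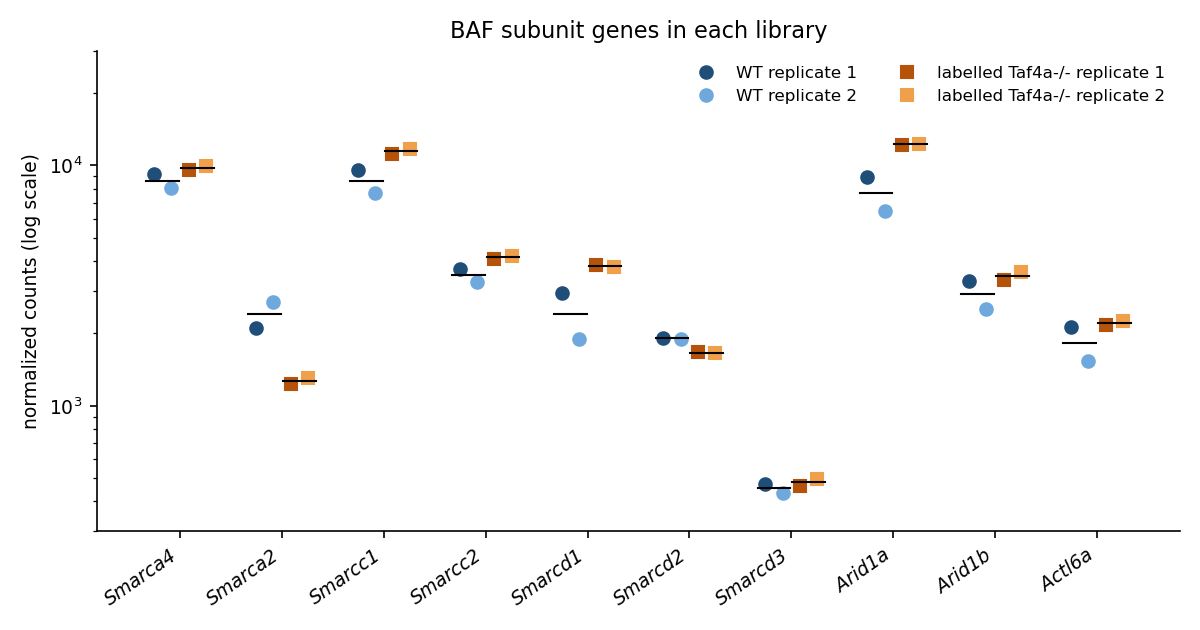
Normalized counts (log axis) of the 10 BAF subunit genes in each library, with circles for WT, squares for the libraries labelled *Taf4a*-/- and a black line at the mean of each genotype (n = 2 libraries). *Smarca2* lies lower in both libraries labelled *Taf4a*-/-, *Arid1a* and *Smarcd1* lie higher, and in *Smarcd3* alone do the genotypes overlap.

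Of the ATPases, *Smarca2* fell in those labelled *Taf4a*-/- and *Smarca4* gave no call. *Smarca2* (chr19:26679650-26852811, plus strand, NCBIM37), the ATPase associated with differentiated cells, stood at 2106 and 2710 normalized counts in replicates 1 and 2 of WT, against 1237 and 1304 in replicates 1 and 2 of those labelled *Taf4a*-/-. Both of the latter values lay below both WT values, and they lay closer to each other than the WT values did. The level fell by 0.91 on the log2 scale, or 1.88-fold (SE 0.15, 95% interval -1.28 to -0.54, adjusted p = 0.0103 from limma). *Smarca4* (chr9:21420613-21508674, plus strand), the ATPase needed by ESCs and early embryos, had 9230.0 and 8071 normalized counts in WT, against 9539.5 and 9901 in those labelled *Taf4a*-/-. The latter were both higher, but by less than the WT libraries differed from each other. The log2 difference was 0.17 (SE 0.13, 95% interval -0.14 to 0.48, adjusted p = 0.348 from limma). The call of *Smarca2* held without each library in turn, and was lost when limma was fitted without a variance trend (adjusted p = 0.05004 from limma).

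The scaffold genes lay higher in the libraries labelled *Taf4a*-/-, and neither passed the test. *Smarcc1* (Baf155, chr9:110034541-110142682, plus strand), the scaffold that prevails in ESCs, had 9568 and 7671 normalized counts in WT and 11205 and 11740.0 in the libraries labelled *Taf4a*-/-. The genotypes did not overlap, and the log2 difference was 0.42 (SE 0.15, 95% interval 0.06 to 0.78, adjusted p = 0.0798 from limma). *Smarcc2* (Baf170, chr10:127896292-127927229, plus strand), its paralogue, had 3704 and 3274 in WT and 4099 and 4183 in those labelled *Taf4a*-/-. The log2 difference of *Smarcc2* was 0.25 (SE 0.12, adjusted p = 0.162 from limma).

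None of the 3 Smarcd genes, whose products link the complex to transcription factors, passed the test. *Smarcd1* (Baf60a, chr15:99532718-99544426, plus strand), the form of ESCs, had 2938 and 1892 normalized counts in WT, against 3869 and 3791 in the libraries labelled *Taf4a*-/-. Its log2 difference of 0.70 was as large as that of *Arid1a* but came with a wider spread in WT and missed the threshold (SE 0.21, 95% interval 0.19 to 1.21, adjusted p = 0.0519 from limma). *Smarcd2* (Baf60b, chr11:106124493-106134286, minus strand), known for its role in granulocyte development, had 1917 and 1900.4 in WT and 1669 and 1662 in those labelled *Taf4a*-/-. Each pair of replicates of *Smarcd2* differed by about 0.01 on the log2 scale, the closest of the 10 genes, and the genotypes by -0.20 (SE 0.11, adjusted p = 0.224 from limma, which pools the spread over genes).

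*Smarcd3* (chr5:24096636-24107830, minus strand), the cardiac Baf60c, was not detectably different. It had 472 and 435 normalized counts in WT and 462 and 498 in the libraries labelled *Taf4a*-/-. The 4 values overlapped, and the log2 difference was 0.08 (SE 0.15, 95% interval -0.29 to 0.46, adjusted p = 0.716 from limma). The cardiac factors that Smarcd3 works with were all lower in the same libraries. *Tbx5* had 324 and 256 normalized counts in WT and 36.2 and 40.9 in those labelled *Taf4a*-/- (log2 fold change -2.87, adjusted p = 0.00203 from limma). *Nkx2-5* had 302 and 198 against 50.9 and 28.8 (log2 fold change -2.64, adjusted p = 0.00639 from limma), and *Gata4* had 4762 and 6041 against 3748 and 3193 (log2 fold change -0.63, adjusted p = 0.0323 from limma). The call of *Gata4* was lost without WT replicate 2 (adjusted p = 0.0966 from limma), without either library labelled *Taf4a*-/- (0.0636 without replicate 1 and 0.189 without replicate 2) and without a variance trend (0.102), while those of *Tbx5* and *Nkx2-5* held in these fits. The reads of *Smarcd3* carry a limit of annotation. Of its 4545 exonic nucleotides 2466 (54.3%) also lie in exons of *Chpf2*, a chondroitin synthesis gene on the opposite strand, and of the microRNA gene *Mir671*, and the kit does not mark strand. *Chpf2* had 1248 and 1615 normalized counts in WT and 1349 and 1253 in those labelled *Taf4a*-/- (log2 difference -0.13, adjusted p = 0.576 from limma). Depending on how reads on shared exons were counted, the values of *Smarcd3* may hold reads of its neighbour or lack reads of its own.

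The genes nearest to *Smarcd3* in their pattern over the 4 libraries were *Ttl*, *Fem1a* and *Patl1*. Nearness was the distance between log2 values centred on each gene's mean, and came to 0.00774, 0.0125 and 0.0218. With 4 libraries and small differences among them, such distances describe a flat profile.

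*Arid1a* (Baf250a, chr4:133234923-133312684, minus strand), the large subunit that defines the ESC form of canonical BAF, had 8928 and 6466 normalized counts in WT, against 12200.2 and 12251 in the libraries labelled *Taf4a*-/-. The values labelled *Taf4a*-/- agreed to within 0.01 on the log2 scale while the WT values differed by 0.47. *Arid1a* was 1.61-fold higher in those labelled *Taf4a*-/- (log2 fold change 0.69, SE 0.18, 95% interval 0.26 to 1.11, adjusted p = 0.0338 from limma). Its paralogue *Arid1b* (Baf250b, chr17:4994332-5347656, plus strand) had 3290.3 and 2522 in WT and 3328 and 3612 in those labelled *Taf4a*-/-, a log2 difference of 0.27 that was smaller than that between the WT libraries (SE 0.16, adjusted p = 0.241 from limma). The call of *Arid1a* was lost without WT replicate 2 (log2 fold change 0.45, adjusted p = 0.0534), without the library labelled *Taf4a*-/- replicate 1 (0.124) or replicate 2 (0.128), all from limma, and with no variance trend.

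*Actl6a* (Baf53a, chr3:32607468-32625890, plus strand), the actin-related subunit of dividing cells, had 2130.4 and 1531 normalized counts in WT and 2178 and 2252 in those labelled *Taf4a*-/-. The lower of the values labelled *Taf4a*-/- was close to WT replicate 1, and the log2 difference was 0.29 (SE 0.17, adjusted p = 0.247 from limma). Of its exonic nucleotides 16.2% are shared with *Mrpl47* on the opposite strand, and 5.80% of those of *Smarcd1* with *Gm17349*. The other 7 genes share none.

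The WT libraries were less alike in these genes than the libraries of the other genotype. WT replicate 1 differed from WT replicate 2 by more than the libraries labelled *Taf4a*-/- differed from each other in 10 of 10 genes, against 62.6% of all genes tested. The median size of the difference between the WT libraries was 0.34 on the log2 scale in the 10 genes and 0.26 over all genes, and between those labelled *Taf4a*-/- 0.05 and 0.16. In *Smarca4*, *Smarcd3*, *Arid1b* and *Actl6a* the difference between the WT libraries exceeded that between the genotypes, in 4 of 10 genes against 33.1% of all genes. WT replicate 1 lay between WT replicate 2 and both libraries labelled *Taf4a*-/- in 8 of 10 genes (48.3% of all genes), with *Smarcd2* and *Smarcd3* as the exceptions. The number of the 10 genes called moved with the libraries used, as did the share of all genes called. Without WT replicate 1 limma called 6 as higher, namely *Arid1a*, *Smarcd1*, *Smarcc1*, *Smarcc2*, *Arid1b* and *Actl6a*, and *Smarca2* as lower, where 14.6% of all genes were called as higher and 17.9% as lower. Without WT replicate 2, without the library labelled *Taf4a*-/- replicate 1 or without its replicate 2 it called 0 of them as higher and *Smarca2* as lower, where 4.40%, 3.69% and 3.69% of all genes were called as higher and 7.22%, 11.7% and 11.3% as lower.

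**Figure D2:**
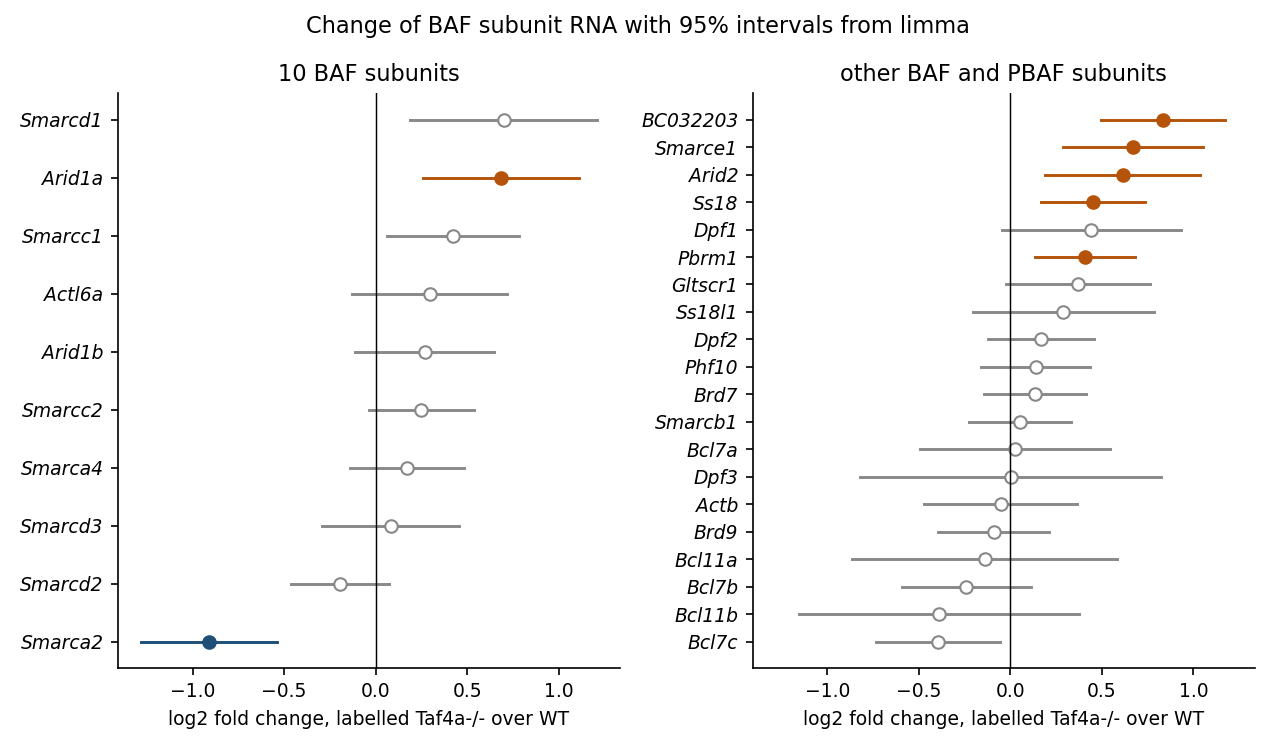
Log2 fold change of the libraries labelled *Taf4a*-/- over WT, with unadjusted 95% intervals from limma (n = 2 libraries per genotype), for the 10 BAF subunits (left) and for 20 other BAF and PBAF subunits (right). Filled points passed the threshold, *Smarca2* as the only one of the 30 genes that was lower and *Arid1a* and 5 others as higher.

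Levels of different genes were compared as normalized counts per kb of exon. In WT the order ran from *Smarca4* (1336 per kb) and *Smarcc1* (1297), which overlapped, through *Smarcd1* (766), *Smarcc2* (694), *Arid1a* (671) and *Actl6a* (662), of which each overlapped the next, to *Smarcd2* (532), *Smarca2* (375), *Arid1b* (231) and *Smarcd3* (99.8). In the libraries labelled *Taf4a*-/- *Smarcc1* came first (1726 per kb), before *Smarca4* (1501), *Smarcd1* (1215) and *Arid1a* (1065), and no neighbours overlapped. *Smarca2* (198 per kb) stood below *Arid1b* (275) there, and *Smarcd3* (106) was the lowest. The place of *Smarcd3* depends on the length used. With only the exon length not shared with other genes it had 227 and 209 per kb in WT, which overlaps *Arid1b* (261 and 200.1), and 222 and 239 in those labelled *Taf4a*-/-, above *Smarca2* (193 and 203). How reads on the shared exons were counted is not given in the sources used here.

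The make-up of each family of paralogues was read as the share of each gene in the summed level per kb. In the ATPase RNA, *Smarca2* made up 18.7% of WT replicate 1, 25.3% of WT replicate 2, and 11.6% and 11.7% of the libraries labelled *Taf4a*-/-. The ATPase sum itself was 1754 and 1669 per kb in WT and 1666 and 1732 in those labelled *Taf4a*-/-, so the genotypes overlapped in total while they differed in composition. Among the Smarcd genes, *Smarcd1* went in share from 59.4% and 49.0% to 68.4% and 67.7%, *Smarcd2* went from 34.03% and 43.2% to 25.9% and 26.1%, and *Smarcd3* from 6.61% and 7.82% to 5.67% and 6.17%. With only the exon length not shared with other genes, the share of *Smarcd3* was 13.0% and 15.2% in WT and 11.2% and 12.1% in those labelled *Taf4a*-/-. *Arid1b* made up 25.1% and 26.2% of the Arid1 RNA in WT and 19.9% and 21.2% in those labelled *Taf4a*-/-. *Smarcc2* went from 33.9% and 36.1% of the Smarcc RNA to 32.6% and 32.0%. The sums of the Smarcc, Smarcd and Arid1 families did not overlap between genotypes and were higher in those labelled *Taf4a*-/-, at 128%, 128% and 149% of the WT mean. Among single genes 71.1% of those tested did not overlap either. Of the genes in these sums, *Arid1a* alone was called.

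**Figure D3:**
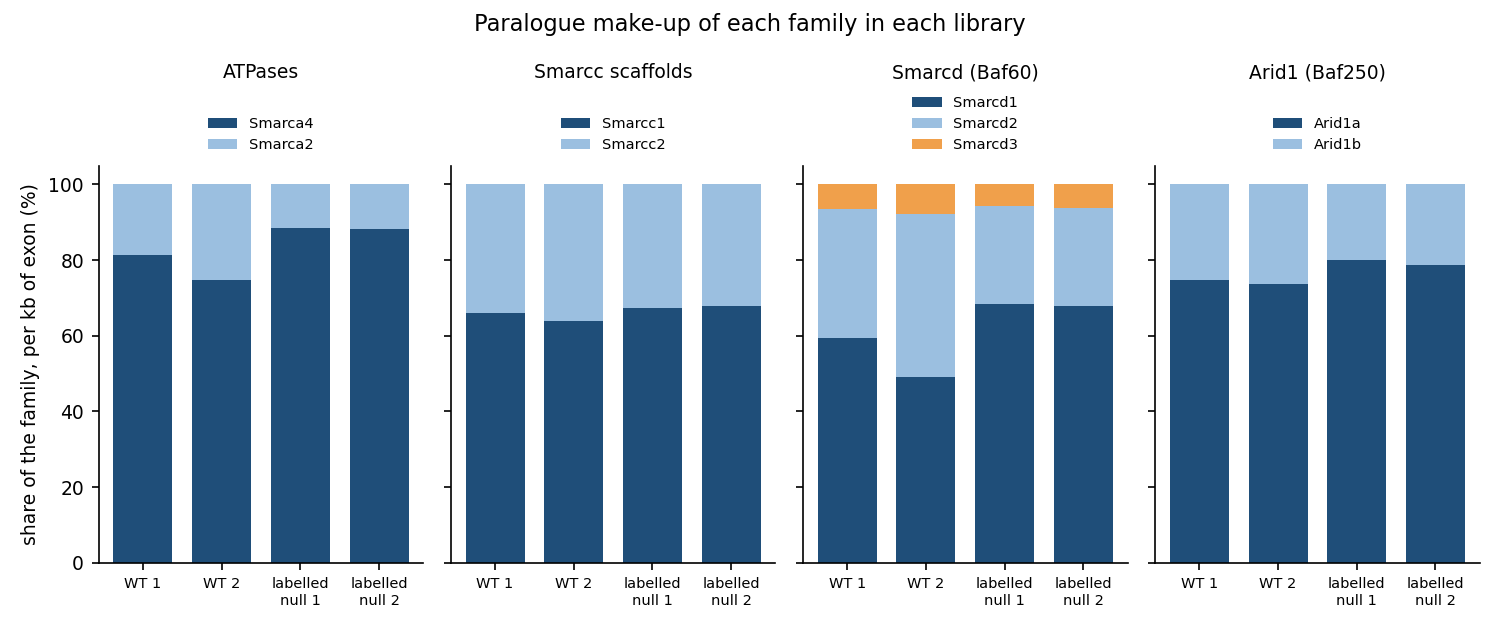
Share (%) of each paralogue in the summed normalized counts per kb of exon of its family, in each of the 4 libraries (WT 1 and 2, and the libraries labelled *Taf4a*-/-, shown as labelled null 1 and 2). The lighter *Smarca2* segment of the ATPases is 18.7% and 25.3% in WT and 11.6% and 11.7% in those labelled *Taf4a*-/-, and *Smarcd1* takes a larger part of the Smarcd family there.

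Ratios of paralogues within a library need neither library scaling nor gene length to be compared between genotypes. The largest difference of the 6 pairs was that of *Smarca2* over *Smarca4*, whose log2 ratio was -2.13 and -1.57 in WT and -2.95 and -2.92 in those labelled *Taf4a*-/-, a difference of -1.08. The ratio of *Smarcd2* over *Smarcd1* differed by -0.90, that of *Smarcd3* over *Smarcd1* by -0.62, that of *Arid1b* over *Arid1a* by -0.42 and that of *Smarcc2* over *Smarcc1* by -0.17. The ratio of *Smarcd3* over *Smarcd2* went the other way, by 0.28. Without WT replicate 2 each of these differences was smaller. It was -0.80 for *Smarca2* over *Smarca4*, -0.59 for *Smarcd2* over *Smarcd1* and -0.36 for *Smarcd3* over *Smarcd1*. For *Arid1b* over *Arid1a* it was -0.38, for *Smarcc2* over *Smarcc1* -0.10 and for *Smarcd3* over *Smarcd2* 0.23. In 6 of 6 pairs the genotypes did not overlap. The pairs reuse genes, 3 of them within the Smarcd family, and 71.1% of single genes did not overlap either. An exact two-sided permutation test gave p = 0.333 for each pair (also 0.333 after adjustment over the pairs), the smallest value that 2 against 2 libraries allow. In the 5 pairs that hold one of the forms named above for ESCs, the ratio in those labelled *Taf4a*-/- lay further towards that form. *Smarcd1* is that form in more than 1 of these pairs, and no share over other gene pairs was computed to set beside the count. In 6 of 6 pairs WT replicate 1 lay nearer to those labelled *Taf4a*-/- than WT replicate 2 did.

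Other BAF and PBAF subunits were read from a list of 21 genes, of which 20 were found and tested and *Actl6b* was not analysed here. In those labelled *Taf4a*-/- 5 of these 20 were called by limma as higher, against 11.3% of all genes, and 0 as lower (1 at an unadjusted p under 0.05, *Bcl7c*, and 0 with voom, the form of limma that weights reads by their precision). Their median log2 fold change was 0.14. The largest rise was that of *BC032203*, entered in the list as an older name of *Bicral*, a subunit of the non-canonical complex, although no table used here pairs the names. It had 691 and 702 normalized counts in WT and 1146 and 1347 in those labelled *Taf4a*-/- (log2 fold change 0.83, adjusted p = 0.0101 from limma). *Smarce1* (Baf57), an HMG-box subunit of all canonical complexes, rose from 1897 and 1438 to 2653 and 2597 (0.67, adjusted p = 0.0270 from limma). *Arid2*, which replaces the Arid1 proteins in PBAF, rose from 5351 and 3839 to 6801 and 7065 (0.61, adjusted p = 0.0456 from limma), and *Pbrm1*, the bromodomain subunit of PBAF, rose from 6990.0 and 6871 to 9328 and 9050.2 (0.41, adjusted p = 0.0425 from limma). *Ss18*, a BAF subunit known from its fusion in synovial sarcoma, rose from 1995 and 1918 to 2540.3 and 2816 (0.45, adjusted p = 0.0351 from limma). The core subunit *Smarcb1* had 2805 and 2619 against 2913 and 2710 (0.05, adjusted p = 0.758 from limma; *Smarcb1* was named after its values were seen). The calls moved with the libraries used, and 6, 1, 1 and 0 of the 20 were called as higher without WT replicate 1, without WT replicate 2 and without the library labelled *Taf4a*-/- replicate 1 or 2.

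Marker RNA of several cell types differed between genotypes beside these values. In bulk RNA, fewer cells of a type and less RNA per cell cannot be told apart. The cardiomyocyte list, which defines the labelled cell type, was detected in all libraries, but 10 of its 10 genes were lower in those labelled *Taf4a*-/-, and their summed level was 29923 and 27441 normalized counts in WT against 3087 and 2744. Of 10 pluripotent cell genes limma called 8 as higher and 0 as lower (9 and 0 at an unadjusted p under 0.05, and 9 and 0 with voom), with sums of 5847 and 2935 against 17272 and 19429. *Pou5f1*, a defining factor of pluripotent cells, had 1097 and 278 in WT and 3113 and 3325 in those labelled *Taf4a*-/-. Of 8 mesenchyme and fibroblast genes 7 were called as lower, with sums of 429319 and 596621 against 48130 and 60341. Visceral endoderm and liver genes were called as lower in 10 of 10 (sums of 92004 and 80000.3 against 2117 and 1329). Macrophage genes were also called as lower in 10 of 10 (sums of 10419 and 12116 against 48.0 and 113). *C1qa* and *Alb*, of the last 2 of these lists, were at 0 in both libraries labelled *Taf4a*-/-. Over all genes tested, 17.3% were called as lower and 11.3% as higher. WT replicate 1 lay between WT replicate 2 and those labelled *Taf4a*-/- in the pluripotent, mesenchyme and macrophage sums, and not in the cardiomyocyte and liver sums. Neural and endothelial genes had 0 calls among 6 each by limma and by voom (at an unadjusted p under 0.05, 1 neural and 2 endothelial genes were lower), with sums of 3950.5 and 4549 against 6416 and 4840 for the neural and 11126 and 7324 against 5773 and 9689 for the endothelial genes. Of 8 skeletal muscle genes, which could share cardiac markers, 4 were tested and 2 were higher, *Mylpf* (63.1 and 66.5 against 412 and 573) and *Actn3*. *Acta1* and *Tnnt3* were not called (log2 differences of -0.89 and -0.59), and the sums of the list were 556 and 682 against 859 and 963. *Myod1* had 6.14 and 1.04 normalized counts in WT and was at 0 in both libraries labelled *Taf4a*-/-. The part of these cell types in the BAF values was not tested.

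**Figure D4:**
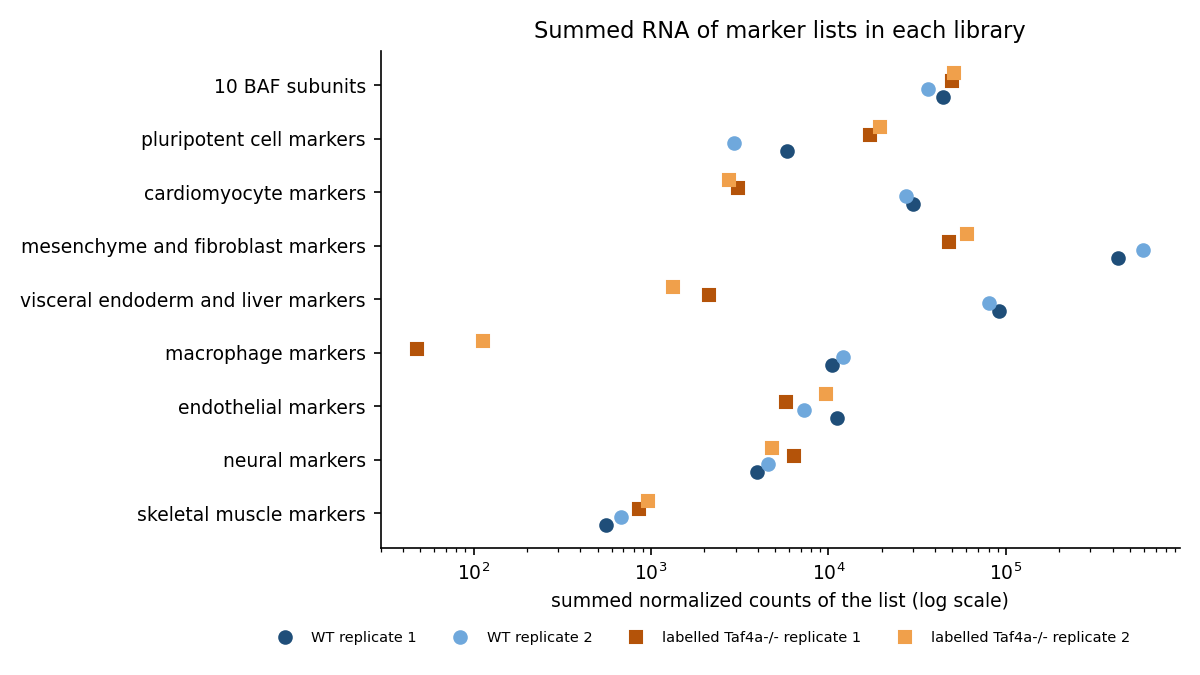
Summed normalized counts (log axis) of the 10 BAF subunits and of 8 marker lists in each library, with circles for WT and squares for the libraries labelled *Taf4a*-/-. The sum of the BAF subunits is 44283.5 and 36473 in WT and, higher in both, 49787 and 51194 in those labelled *Taf4a*-/-. Pluripotent cell markers are higher and cardiomyocyte, mesenchyme, liver and macrophage markers are lower in those labelled *Taf4a*-/-.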

How the data were processed

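Polyadenylated RNA from 2 WT lines and 2 lines labelled *Taf4a*-/- was made into libraries with a kit that does not mark strand. According to the submitters' processing notes, CASAVA 1.8, TopHat 1.3.3, HTSeq 0.5.3p1 and DESeq were used with build mm9. The annotation release is not given in the sources used here. The authors deposited counts per gene divided by 1 size factor per library, as other values than raw counts, with decimal commas. Division by the value of 1 read gave whole numbers for 100% of values (tolerance 0.01 reads). The number of value columns not used was 0. The members and lists were chosen with earlier results of these data known.

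Values were tested as log2(value + 1) with limma 3.58.1 in R 4.3.3 (eBayes with a variance trend, prior of 4.17 degrees of freedom), without covariates, over genes with a mean of at least 10. Intervals from limma are not adjusted. Lengths are the union of annotated exons of NCBIM37, in which 24637 of 24637 identifiers were found. Alternatives changed the pseudocount, the filter, the scaling, the trend, the threshold, the libraries and the length. The text names the 10 BAF genes, the called other subunits and the 3 with the largest change, the largest called rise and fall of each other remodeller list, the 3 genes nearest to *Smarcd3*, *Taf4a* and 3 cardiac factors, while *Eif2s3y*, *Xist*, *Smarcb1*, overlapping neighbours and single markers were chosen after their values were seen. Reads were not marked by molecule, so counting errors cover counting only.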

Additional observations from a re-analysis of the deposited data

How the results depend on the processing

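No gene of the 10 changed direction under the 10 alternatives that can move a fold change (pseudocounts, scalings, voom and the libraries left out), while the other 6 change the test alone. *Smarca2* stayed between -1.09 and -0.73 on the log2 scale (adjusted p 0.00884 to 0.05004 from limma) and *Arid1a* between 0.45 and 0.92 (0.0157 to 0.128). The number of the 10 genes called as higher, 1 as reported, was 2 with a pseudocount of 10, 0 without a variance trend, 0 at an adjusted p under 0.01 and 3 at an adjusted p under 0.1, and ran from 0 to 6 when 1 library was left out. The number called as lower, 1 as reported, was 0 without a variance trend and 0 at 0.01. Of the other BAF and PBAF subunits, 5 as reported, 3 were called as higher without a filter, 1 without a variance trend and 0 at 0.01, with 0 to 6 when 1 library was left out, and 1 was called as lower at 0.1. The remodellers of other families, 8 higher and 1 lower, had 0 and 0 calls without a variance trend and 0 and 0 at 0.01, and 3 lower at 0.1, with 0 to 16 higher and 0 to 2 lower when 1 library was left out. Over all genes, 1906 higher and 2928 lower became 856 and 1741 without a variance trend and 331 and 1119 at 0.01, and 2903 were higher at 0.1. When 1 library was left out they ran from 624 to 2476 and from 1222 to 3038. In these fits a lone library is assumed to vary like the other genotype. Quantile normalization moved the share of higher calls from 39.4% to 51.6% of all calls and the median of all genes from -0.01 to 0.11, and left the calls among the 10 genes at *Arid1a* and *Smarca2*. Lengths of the longest annotated transcript gave WT shares of 67.8% for *Smarcc1*, 32.2% for *Smarcc2*, 78.5% for *Arid1a* and 21.5% for *Arid1b*, and exon length not shared with other genes gave 14.1% for *Smarcd3*. The causes of these moves were not tested, beside the fewer libraries, the changed threshold and the changed length themselves.

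With the replicate number as a block, 2 of the 10 genes were called as higher (*Arid1a* and *Smarcd1*) and 1 as lower, and 2 of the other subunits as higher. The deviations of same-numbered libraries from their genotype means had a correlation of 0.01, so the numbers were not taken as a pairing, although replicate 1 of each genotype held Y-linked reads and replicate 2 did not. Voom on the recovered reads, the unshared exon length and the alternatives for the other remodellers and cardiac partners were added after the data were seen, and voom called the same 2 of the 10 genes. The planned edgeR and DESeq2 fits were not run, and voom stands in their place. With 2 libraries per genotype, a log2 difference of 0.70 in *Smarcd1* did not pass the test, and counting error was at most 4.89% of a value in the 10 genes.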

Other observations

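Genes of the other ATP-dependent remodeller families were read beside the BAF subunits. Of 9 genes of the ISWI family, which space nucleosomes, limma called 2 as higher in the libraries labelled *Taf4a*-/- and 0 as lower (5 and 0 at an unadjusted p under 0.05, 2 and 0 with voom). The median of their log2 fold changes was 0.43. The larger rise was that of the ATPase *Smarca5*, which stood at 2115.5 and 2064 normalized counts in replicates 1 and 2 of WT, against 3252 and 3281 in those labelled *Taf4a*-/- (log2 fold change 0.64, adjusted p = 0.0102 from limma). Of 20 genes of the CHD family and the NuRD complex 3 were higher and 1 lower (median 0.12). *Hdac1*, a histone deacetylase of NuRD and other complexes, rose from 878 and 820 to 1349.9 and 1297 (0.64, adjusted p = 0.0154 from limma), while *Rbbp7*, a histone-binding subunit of NuRD and PRC2, fell from 11256 and 14469 to 8261 and 7817 (-0.67, adjusted p = 0.0266 from limma). Of 16 genes listed as INO80 and SRCAP remodellers, a list not limited to subunits of these 2 complexes, 3 were higher and 0 lower by limma (4 and 1 at an unadjusted p under 0.05, 3 and 0 with voom, median 0.13). The largest rise in this list was that of *Ep400*, an ATPase of histone exchange, from 5080 and 3837 to 7536 and 7505 (0.77, adjusted p = 0.0187 from limma). Over all genes 11.3% were called as higher and 17.3% as lower. When 1 library was left out, the calls over these 3 lists ran from 0 to 16 higher and from 0 to 2 lower, with 16 and 2 without WT replicate 1, 4 and 0 without WT replicate 2, and 0 and 0 without either library labelled *Taf4a*-/-.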
